A study of Mus musculus with 4 samples.

Results

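Neuron microtubule and growth cone genes were examined in RNA-seq data from the embryonic mouse larynx. The group holds 10 genes (*Stmn2*, *Stmn3*, *Tubb3*, *Dcx*, *Map1b*, *Mapt*, *Gap43*, *Elavl3*, *Elavl4* and *Crmp1*) of the 46983 genes in each deposited table. They were taken by gene symbol, and the values of each gene ID were summed. All 10 had an entry in every table and passed the filter on low values, a mean of at least 1 TPM (StringTie's level per transcript length and library size) over the 4 libraries. The genes were named because their levels were known to be higher in *Shh-/-* than in WT larynxes in these same libraries. Their difference between the genotypes is therefore given as a description, with no test.

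Vocal fold tissue was collected at E10.5 (embryonic day), at 32 to 35 somites, and each library was made from a pool of 3 larynxes. There were 2 *Shh-/-* pools (1 and 2), homozygous for the *Shhtm1amc* null allele on a Swiss Webster background, and 2 pools of WT Swiss Webster embryos (4 and 6). The sample labels write the mutant pools as *Shh+/-*, whereas the series design and the methods of the study give *Shh-/-*, which is the name used here. The allele is germline, so *Shh* function was lost in every tissue and not in the larynx alone. Nothing in the labels ties a pool to a litter, so p-values measure the spread between these pools only. Each library had 1.37 to 3.13 Gb of aligned bases, lowest in *Shh-/-* pool 1, and 16432 to 17117 genes at 1 TPM or more. The Hedgehog receptor and target gene *Ptch1* was at 12.9 and 13.8 TPM in *Shh-/-* and 57.8 and 55.1 TPM in WT (log2 fold change -2.00, SE 0.12, limma adjusted p = 0.0319), and *Shh* itself at 10.4 and 10.8 against 23.7 and 42.1 TPM (-1.49, SE 0.28, limma adjusted p = 0.0895). The *Ptch1* call was lost when any 1 pool was left out, at log2 fold changes of -1.95 to -2.04.

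Young neurons extend an axon whose core is a bundle of microtubules and whose tip is the growth cone, a motile sheet of actin and microtubule ends. Neuron-specific tubulin, proteins that bind microtubules, and proteins that hold free tubulin subunits set how that scaffold grows, while membrane phosphoproteins of the growth cone pass guidance cues to it. At this stage the neurons in and around the foregut come from the neural crest, which gives enteric and other autonomic neurons, and from the cranial placodes, which give the vagal sensory neurons that innervate the larynx. The neuronal ELAV proteins bind AU-rich mRNAs, among them that of *Gap43*, and are among the first proteins made when a cell leaves the cycle as a neuron. Many neuron genes carry sites for the repressor REST, and neurogenic bHLH factors bind E-boxes.

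Upstream sequence was read for 7 of the 10 genes from the RefSeq promoter table (mouse build GRCm38.p6). *Stmn2*, *Mapt* and *Gap43* had no entry. The 150 bases before the RefSeq start are shown for *Elavl3* and *Stmn3*, which had large differences between the genotypes, and for *Map1b*, which had a small one. In these genes the RefSeq start lies at the outer end of the gene in the deposited tables. Each sequence runs 5′ to 3′ on the minus strand, and capitals mark matches to an E-box (CANNTG, read the same on both strands) or to a TATA box (TATAAA). The region of *Elavl3* is chr9:22052024-22052173, that of *Stmn3* is chr2:181314501-181314650 and that of *Map1b* is chr13:99516603-99516752.
Elavl3: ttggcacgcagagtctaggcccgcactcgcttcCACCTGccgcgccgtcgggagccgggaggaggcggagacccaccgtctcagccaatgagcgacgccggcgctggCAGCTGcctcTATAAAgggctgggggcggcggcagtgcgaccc
Stmn3: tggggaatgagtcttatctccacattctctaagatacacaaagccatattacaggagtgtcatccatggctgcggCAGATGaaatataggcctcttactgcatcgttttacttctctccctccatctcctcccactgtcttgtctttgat
Map1b: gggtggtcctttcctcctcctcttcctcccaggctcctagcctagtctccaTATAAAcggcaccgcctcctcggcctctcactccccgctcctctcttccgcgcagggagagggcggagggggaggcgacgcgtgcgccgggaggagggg

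In *Elavl3* the matches were a CACCTG E-box at position -117 (the base just before the start being position -1), a CAGCTG E-box at -43 and a TATA box at -33. *Stmn3* held a CATCTG E-box on its opposite strand at -75, and *Map1b* a TATA box at -99. The motifs were searched on both strands of windows of 300 bases, from 250 before to 50 after the start, with CAGCTG and CATCTG counted within CANNTG as well. An E-box of any form was found in 3 of the 7 windows (*Elavl3*, *Map1b* and *Stmn3*) and in 72.1% of the windows of all 27025 genes with an entry. CAGCTG was found in 1 (*Elavl3*) against 16.1% of all genes, and CATCTG in 2 (*Map1b* and *Stmn3*) against 17.3%. TATAAA was found in 3 (*Dcx*, *Elavl3* and *Map1b*) against 14.2%. Of the parts of the REST motif, TTCAGCACC was in 0 of the 7 windows (0.37% of all genes), and GGACAGC was in those of *Crmp1* and *Tubb3* (6.58% of all genes). The genes thus had no motif of this set in common, and an E-box, TATAAA and GGACAGC were each found in genes of large and of small difference.

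The tubulin gene of the group showed the largest difference. *Tubb3* (ENSMUSG00000062380.3, mm10 chr8:123411424-123422015, plus strand) encodes class III beta-tubulin, the isotype that marks neurons. Its level was 184 and 203 TPM in *Shh-/-* and 37.6 and 21.5 TPM in WT, with means of 194 ± 13.5 and 29.6 ± 11.4 TPM (SD, n = 2 each). Both *Shh-/-* pools were above both WT pools, by 4.90-fold from the lower *Shh-/-* to the higher WT pool, while the WT pools themselves differed by 1.75-fold. The log2 fold change (*Shh-/-* minus WT, of TPM + 1, a scale that understates the change of low genes) was 2.72, with a range of 2.33 to 3.11 when each pool was left out in turn. *Gm20388*, a gene model annotated over *Tubb3* on the same strand, was at 0.85 TPM in *Shh-/-* pool 1 and listed at 0 in the other pools.

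Both stathmins followed. These proteins bind tubulin dimers and promote microtubule turnover, and both listed members are made mainly in neurons. *Stmn2* (ENSMUSG00000027500.10, chr3:8509360-8561606, plus strand) was at 89.1 and 103 TPM in *Shh-/-* and 18.2 and 19.1 TPM in WT. The groups did not overlap, and the mean was 5.15-fold higher in *Shh-/-* (96.1 ± 9.99 against 18.6 ± 0.64 TPM, log2 fold change 2.30). *Stmn3* (ENSMUSG00000027581.12, chr2:181306459-181314500, minus strand) was lower in level throughout, at 22.8 and 29.0 TPM in *Shh-/-* and 6.17 and 5.5 TPM in WT. Its groups were also apart, with a 4.44-fold higher mean in *Shh-/-* (25.9 ± 4.33 against 5.83 ± 0.48 TPM, log2 fold change 1.97). The ratio of *Stmn2* to *Stmn3* TPM was 3.90 and 3.56 in *Shh-/-* and 2.95 and 3.47 in WT, so the nearest pools of the genotypes (3.56 and 3.47) were close in ratio while the level of either gene was several-fold apart.

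The microtubule-associated proteins of the group covered a wider range. *Dcx* (ENSMUSG00000031285.14, chrX:143855842-143933311, minus strand) encodes doublecortin, which stabilises microtubules in migrating neurons. It was at 11.0 and 15.9 TPM in *Shh-/-* and 7.05 and 5.22 TPM in WT (13.4 ± 3.45 against 6.14 ± 1.29 TPM, 2.19-fold). The groups were apart by 1.56-fold between their nearest pools, close to the spread inside each group. *Map1b* (ENSMUSG00000052727.5, chr13:99421464-99516602, minus strand) encodes an early axonal microtubule-binding protein that is also found outside neurons. Its 2 *Shh-/-* pools were at 30.0 and 31.1 TPM and its WT pools at 17.5 and 18.3 TPM (30.5 ± 0.79 against 17.9 ± 0.54 TPM, 1.71-fold). This was the smallest log2 fold change of the 10 genes, 0.74, and one of the steadiest, with 0.71 to 0.77 on leaving out each pool.

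*Mapt* (ENSMUSG00000018411.17, chr11:104231390-104332090, plus strand), which encodes the axonal protein tau, had the lowest level of the group. It was at 3.80 and 2.84 TPM in *Shh-/-* and 0.87 and 0.41 TPM in WT, so the groups were apart and both WT pools were under 1 TPM. *Mapt* thus passed the filter only through the *Shh-/-* pools. The mean was 5.19-fold higher in *Shh-/-* (3.32 ± 0.68 against 0.64 ± 0.33 TPM), while the log2 fold change on the TPM + 1 scale was 1.40. With a pseudocount of 0.1 in place of 1 it was 2.27, so the size of the *Mapt* difference depended on that choice more than that of any other gene of the group.

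For the growth cone proteins, *Gap43* (ENSMUSG00000047261.9, chr16:42248442-42340651, minus strand) encodes a membrane-bound substrate of protein kinase C that is abundant in growth cones. Its level was 117 TPM in both *Shh-/-* pools and 52.2 and 43.1 TPM in WT. The groups did not overlap, and the mean was 2.45-fold higher in *Shh-/-* (117 ± 0.34 against 47.7 ± 6.44 TPM, log2 fold change 1.28). *Crmp1* (ENSMUSG00000029121.15, chr5:37241940-37292133, plus strand) encodes a collapsin response mediator, a tubulin-binding relay of semaphorin signals. It was at 66.4 and 57.3 TPM in *Shh-/-* and 42.5 and 30.1 TPM in WT (61.8 ± 6.45 against 36.3 ± 8.79 TPM, 1.70-fold). The *Crmp1* groups came closest of the 10 genes, with the lower *Shh-/-* pool 1.35-fold above WT pool 4, and its log2 fold change of 0.77 ranged from 0.53 to 1.01 on leaving out each pool. The gene *Evc* overlaps its end on the opposite strand, and was at 21.4 and 31.2 TPM in *Shh-/-* and 27.3 and 22.9 TPM in WT.

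The RNA-binding genes were the other pair of close relatives. *Elavl3* (ENSMUSG00000003410.7, chr9:22015005-22052023, minus strand) encodes HuC and was at 14.2 and 13.0 TPM in *Shh-/-* and 3.07 and 1.85 TPM in WT (13.6 ± 0.87 against 2.46 ± 0.86 TPM, 5.52-fold, log2 fold change 2.1). *Elavl4* (ENSMUSG00000028546.17, chr4:110203722-110351909, minus strand) encodes HuD and was at 21.1 and 22.6 TPM in *Shh-/-* and 9.41 and 8.60 TPM in WT (21.8 ± 1.10 against 9.01 ± 0.57 TPM, 2.42-fold, log2 fold change 1.19). Neither gene's groups overlapped. *Elavl4* was above *Elavl3* in all 4 pools, and the ratio of *Elavl3* to *Elavl4* TPM was 0.67 and 0.57 in *Shh-/-* and 0.33 and 0.22 in WT. In this pair both the level and the balance were apart, since the nearest pools of the genotypes had ratios of 0.57 and 0.33.

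**Figure D1:**
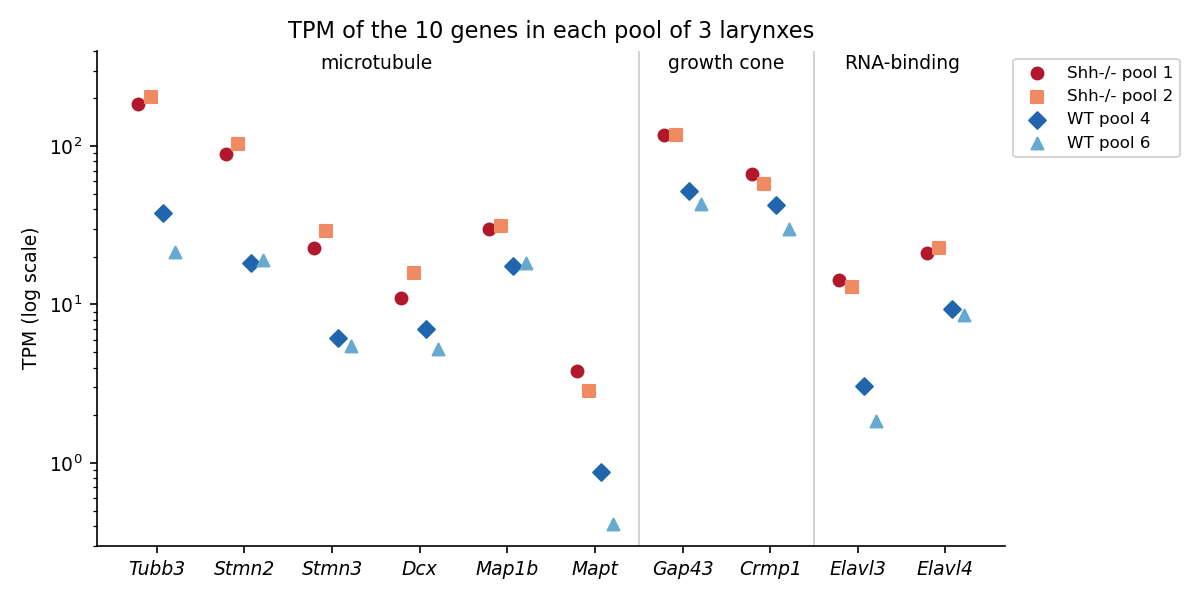
TPM on a log scale (vertical axis) of each of the 10 genes (horizontal axis, grouped by role) in the 2 *Shh-/-* pools (red circle, orange square) and the 2 WT pools (dark blue diamond, light blue triangle), with 1 point per pool. For every gene both *Shh-/-* points lie above both WT points, with the widest gap for *Tubb3* (4.90-fold between the nearest pools) and the narrowest for *Crmp1* (1.35-fold).

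Together, the 10 genes summed to 559 and 595 TPM in *Shh-/-* and 195 and 154 TPM in WT (577 ± 25.5 against 174 ± 29.0 TPM), a 3.32-fold difference. Both *Shh-/-* pools exceeded both WT pools for 10 of 10 genes, as they did for 38.0% of all 16972 tested genes, and 5 of the 10 (*Stmn2*, *Stmn3*, *Tubb3*, *Gap43* and *Elavl3*) had a limma adjusted p under 0.05 as higher, against 0.560% of tested genes. The genes were chosen from this contrast, so nothing is read from these counts. Their median log2 fold change was 1.34, where that of all tested genes was 0.08 and 295 tested genes (1.74%) lay above it. Centring each library on its median lowered the all-gene median by 0.13 and gave 1.21 for the 10 genes. In bulk tissue a larger number of neurons and more of these RNAs per neuron cannot be told apart.

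The genes contributed unequally to the sum, and their order changed. In *Shh-/-*, *Tubb3* led, followed by *Gap43*, *Stmn2*, *Crmp1*, *Map1b*, *Stmn3*, *Elavl4*, *Elavl3*, *Dcx* and *Mapt*. Only *Elavl3* and *Dcx* had overlapping pools among the neighbours in this order, although *Stmn3* and *Elavl4* were separated by just 22.8 against 22.6 TPM in their nearest pools. In WT the order was *Gap43*, *Crmp1*, *Tubb3*, *Stmn2*, *Map1b*, *Elavl4*, *Dcx*, *Stmn3*, *Elavl3* and *Mapt*, and the pools of *Crmp1* and *Tubb3*, of *Stmn2* and *Map1b*, and of *Dcx* and *Stmn3* overlapped. The share of the 10-gene sum held by *Tubb3* was 33.0 and 34.2% in *Shh-/-* and 19.3 and 14.0% in WT. *Crmp1* held 11.9 and 9.62% in *Shh-/-* and 21.8 and 19.6% in WT, and *Gap43* held 20.9 and 19.7% against 26.8 and 28.1%. The largest share of this set was thus held by *Tubb3* in *Shh-/-* and by *Gap43* in WT. The WT lead of *Gap43* was narrow, at 43.1 against 42.5 TPM between its nearest pool and that of *Crmp1*.

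Pools of the same genotype also differed from each other. Of the 10 genes, 8 were higher in WT pool 4 than in WT pool 6, all but *Stmn2* and *Map1b*, with a median ratio of 1.28 where all tested genes had 1.02. In *Shh-/-*, 7 of the 10 were higher in pool 2 than in pool 1, all but *Mapt*, *Crmp1* and *Elavl3*, with a median ratio of pool 1 to pool 2 of 0.95 (1.04 for all tested genes). The share of all tested genes with either order was not computed, so nothing is read from these counts. The RNA integrity number was 8 and 7.7 in *Shh-/-* and 7.7 and 9 in WT, so its order did not separate the genotypes. For *Shh-/-* pool 1, the shallowest library, the ratio to pool 2 ran from 0.69 (*Dcx*) to 1.34 (*Mapt*).

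The group was next set beside its unlisted relatives in the same gene families. The listed genes were chosen as higher in *Shh-/-*, so their shares and changes beside these relatives are a description. Among 8 beta-tubulin genes, *Tubb3* made up 5.59 and 6.5% of the family's TPM in *Shh-/-* and 1.31 and 0.79% in WT. The family was dominated by *Tubb5*, at 2230 and 2020 TPM in *Shh-/-* and 2189 and 2101 TPM in WT (log2 fold change -0.01, limma adjusted p = 0.932), a change whose sign turned positive with quantile normalization and without *Shh-/-* pool 2 or WT pool 4. *Tubb2b*, another beta-tubulin that is abundant in developing neurons, rose from 189 and 179 TPM in WT to 321 and 328 TPM in *Shh-/-* (log2 fold change 0.81, SE 0.09, limma adjusted p = 0.0463). *Tubb2a* was at 179 and 193 against 119 and 117 TPM (0.66, limma adjusted p = 0.0652). *Tubb2a* and *Tubb2b* have nearly identical coding sequences, as do several alpha-tubulins, so the split of reads among them is uncertain.

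In the stathmin family, *Stmn2* and *Stmn3* together made up 14.3 and 17.3% of TPM in *Shh-/-* and 5.0 and 5.28% in WT. *Stmn1*, which is made in dividing cells of many kinds, held most of the rest and was at 662 and 618 TPM in *Shh-/-* and 458 and 435 TPM in WT (log2 fold change 0.52, limma adjusted p = 0.0800). *Stmn4*, a neuronal relative, was at 9.51 and 12.5 against 4.44 and 5.85 TPM (0.96, limma adjusted p = 0.108). The ELAV family had a like pattern, with *Elavl3* and *Elavl4* at 24.8 and 25.1% of its TPM in *Shh-/-* and 11.0 and 9.96% in WT. The ubiquitous *Elavl1* (HuR) was at 80.4 and 81.8 TPM in *Shh-/-* and 88.4 and 83.5 TPM in WT (-0.08, limma adjusted p = 0.617), and the neuronal *Elavl2* at 26.4 and 24.0 against 12.2 and 11.0 TPM (1.06, limma adjusted p = 0.0595). In these families the broadly expressed gene held the most transcripts, and its log2 fold change was nearer to that of all tested genes than those of the listed genes were. The listed genes were chosen for their difference, so nothing is read from that order.

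The listed gene's share was higher in both *Shh-/-* pools than in both WT pools in the remaining families other than that of *Dcx*. *Dcx* held 29.6 and 38.7% of the doublecortin family's TPM in *Shh-/-* and 36.6 and 29.6% in WT, since *Dclk1* (15.3 and 14.8 against 8.06 and 8.88 TPM) and *Dclk2* (10.1 in both *Shh-/-* pools against 4.0 and 3.46 TPM) were higher in *Shh-/-* by a like amount, with limma adjusted p of 0.0895 and 0.0602. *Map1b* held 48.8 and 49.8% of the MAP1 family in *Shh-/-* and 40.9 and 47.8% in WT. *Crmp1* held 19.4 and 17.8% of the CRMP family against 15.8 and 12.1%, and *Gap43* 5.26 and 5.55% of the TPM of *Gap43*, *Basp1*, *Marcks* and *Marcksl1* against 3.08 and 2.64%. *Mapt* held 4.26 and 3.03% of the TPM of *Mapt*, *Map2* and *Map4* against 1.16 and 0.71%. *Map2*, the dendritic relative, was at 18.1 and 23.1 TPM in *Shh-/-* but 11.1 and 23.8 TPM in WT, so its pools overlapped and the sign of its log2 fold change (0.31) turned without WT pool 4.

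**Figure D2:**
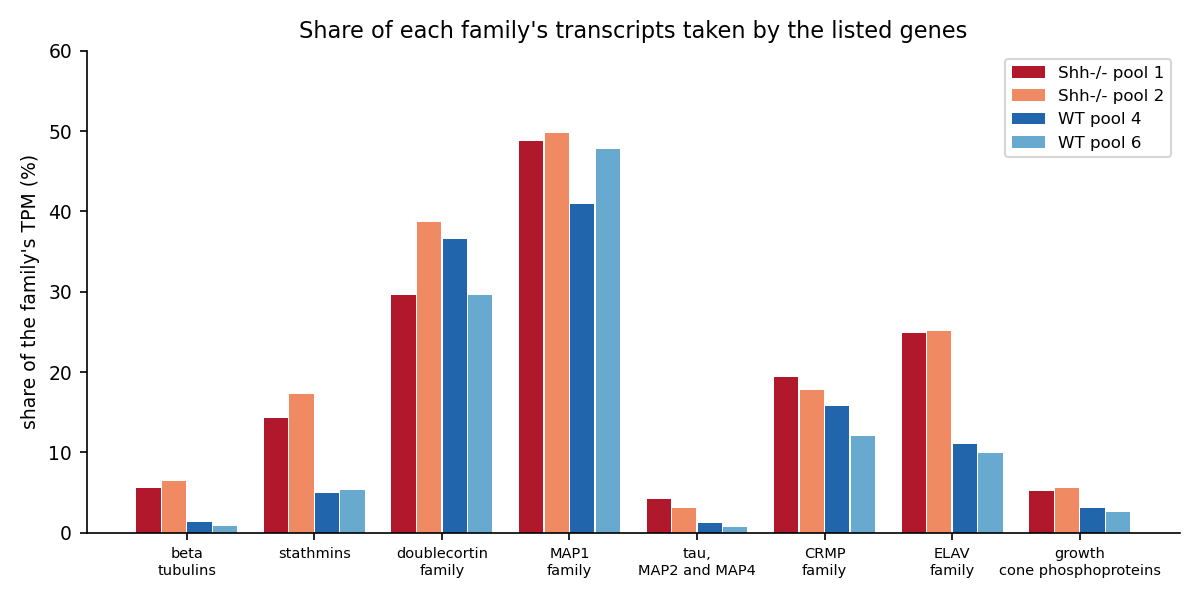
Percent of each gene family's summed TPM (vertical axis) held by the listed genes in each of the 4 pools, with 1 bar per pool (*Shh-/-* red and orange, WT dark and light blue) for each family on the horizontal axis. The bars of both *Shh-/-* pools are above both WT bars in 7 of the 8 families, with 24.8 and 25.1 against 11.0 and 9.96% in the ELAV family and 48.8 and 49.8 against 40.9 and 47.8% in the MAP1 family, and they overlap in the doublecortin family. The listed genes were chosen as higher in *Shh-/-*, so nothing is read from that count.

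**Figure D3:**
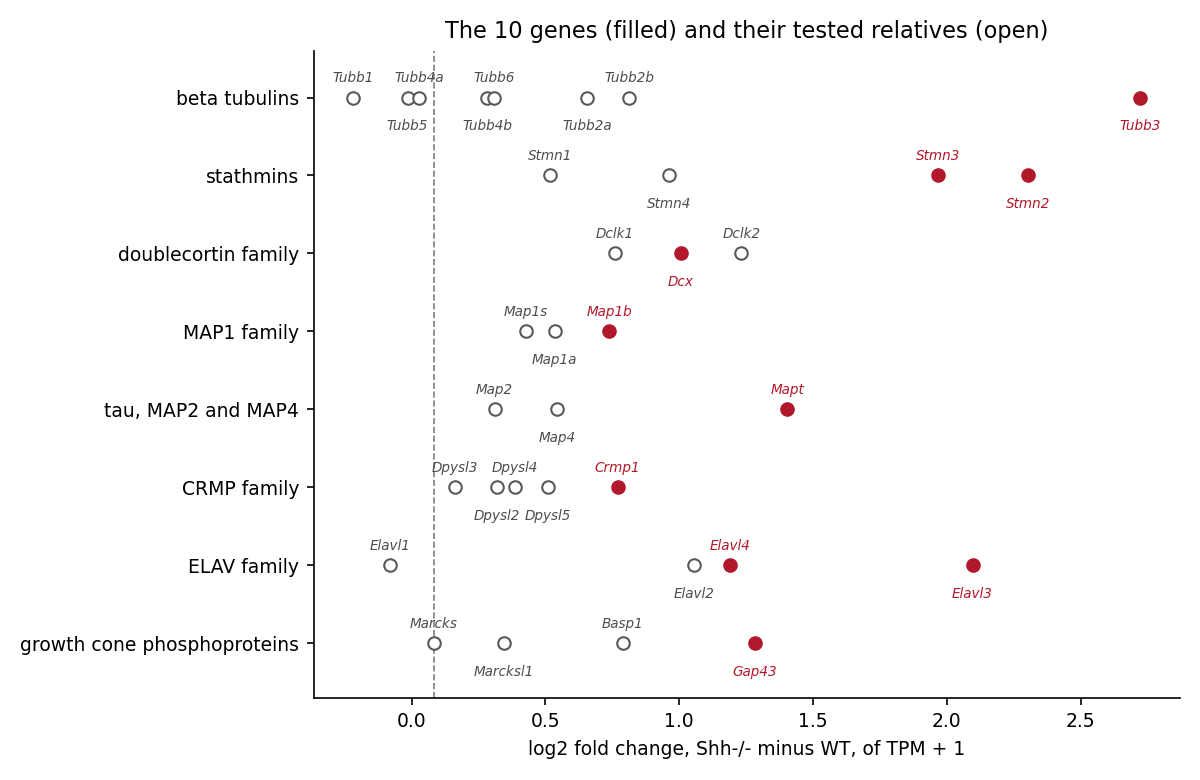
Log2 fold change of TPM + 1 (horizontal axis, *Shh-/-* minus WT) of the 10 genes (filled red circles) and of the tested relatives in their families (open circles), with 1 line per family and the median of all tested genes, 0.08, as a dashed line. Each listed gene lies to the right of all its unlisted relatives except *Dcx* (1.01), which lies left of *Dclk2* (1.23). The listed genes were chosen as higher in *Shh-/-*, so their place is a description.

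The rest of the pathway was taken from 12 lists of 125 other genes, of which 112 passed the filter. The lists cover microtubules, the growth cone, axons, vesicle release, neuronal RNA-binding proteins and other genes of young neurons. They were chosen with earlier results of these data known, so their share of calls is a description. Of the 112 genes, 6 rose in *Shh-/-* at a limma adjusted p under 0.05 and 0 fell (5.36% called, where all tested genes had 0.725% called, 0.560% as higher and 0.165% as lower). The list of other neuron genes held 4 of the 6 calls. Without adjustment, 68 of the 112 had a limma p under 0.05 as higher and 4 as lower, where all tested genes had 17.5% and 7.22%. Their median log2 fold change was 0.54, and 96 were positive and 16 negative. None of the 6 calls held when any 1 of the 4 pools was left out, when 0 of the 112 passed, with 47 to 58 at an unadjusted p under 0.05.

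The 6 genes that rose encode intermediate filament proteins (*Nefl*, *Ina* and *Prph*), a tubulin (*Tubb2b*), a zinc finger protein (*St18*) and a granule protein (*Chga*). *Nefl*, the light neurofilament subunit, was at 127 and 150 TPM in *Shh-/-* and 29.9 and 17.8 TPM in WT (log2 fold change 2.53, SE 0.26, limma adjusted p = 0.0449). *Ina*, the neuronal intermediate filament internexin, was at 16.3 and 19.6 against 3.52 and 2.46 TPM (2.25, SE 0.21, limma adjusted p = 0.0418), and *Prph*, peripherin of peripheral neurons, at 15.4 and 20.6 against 4.58 and 4.20 TPM (1.80, SE 0.20, limma adjusted p = 0.0466). The groups were apart for all of these filament genes. The zinc finger gene *St18* was at 7.16 and 8.46 against 0.98 and 0.38 TPM (2.41, SE 0.26, limma adjusted p = 0.0463), and *Chga*, a core protein of secretory granules, at 5.17 and 5.58 against 0.80 and 0.88 TPM (1.79, SE 0.19, limma adjusted p = 0.0466). *St18* and *Chga* were under 1 TPM in both WT pools and passed the filter only through the *Shh-/-* pools, where they are high. *Tubb2b*, above, was the remaining one. *Nefm*, the medium neurofilament subunit, had a larger change than any of them (222 and 246 against 51.3 and 24.8 TPM, log2 fold change 2.68) but a limma adjusted p of 0.0595. The ratio of *Tubb3* to *Nefm* TPM was 0.83 in both *Shh-/-* pools and 0.73 and 0.87 in WT, so their ratio overlapped between the genotypes while both levels were apart.

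By list, the other neuron genes had a median of 1.32 on the log2 fold change scale (17 tested, 4 called, 16 positive), and the synaptic vesicle and granule genes 0.77 (16 tested, 1 called, 16 positive). The doublecortin relatives had a median of 1.0 and the stathmin relatives 0.74, with 2 tested and 0 called in each. The neuronal RNA-binding genes had a median of 0.72 (9 tested, 0 called), with *Celf3*, a neuronal splicing factor, at 8.68 and 6.53 against 2.21 and 2.5 TPM (1.35, limma adjusted p = 0.0715). The medians of the remaining lists were 0.56 for the growth cone actin regulators (10 tested, 0 called), 0.37 for the axonal kinesins (12 tested, 0 called), 0.35 for the CRMP relatives (4 tested, 0 called), 0.35 for the growth cone phosphoproteins (3 tested, 0 called), 0.33 for the axonal adhesion molecules (7 tested, 0 called), 0.31 for the tubulins (13 tested, 1 called) and 0.31 for the microtubule-associated proteins (17 tested, 0 called).

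Of the 112 genes of these lists, 16 had a negative log2 fold change, and none of the 16 passed the adjusted threshold. *Ablim1*, *Nrcam* and *Map9* were among them and were lower in both *Shh-/-* pools than in both WT pools, as 22.7% of all tested genes were. *Ablim1*, which links actin filaments to other proteins, was at 3.58 and 5.89 TPM in *Shh-/-* and 11.9 and 20.8 TPM in WT (log2 fold change -1.58, limma adjusted p = 0.103). *Nrcam*, an axonal adhesion molecule, was at 1.20 and 2.04 against 5.02 and 5.37 TPM (-1.26, limma adjusted p = 0.0895), and the microtubule protein gene *Map9* at 5.69 and 5.68 against 8.51 and 11.0 TPM (-0.68, limma adjusted p = 0.135). The adhesion list had 4 positive and 3 negative genes among 7 tested. In it *Ncam1* (16.9 and 24.2 against 7.25 and 6.51 TPM) and *Cntn2* (6.37 and 9.38 against 2.43 and 2.88 TPM) lay the other way from *Nrcam*, at 1.43 and 1.26 on the log2 scale and limma adjusted p of 0.0680 and 0.0894.

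Markers of neuron classes and their precursors were examined in the same fit. Over all the marker lists, 11 genes passed the adjusted threshold, where 0.725% of all tested genes did. The number tested is given with each list below. None of the 11 passed when any 1 of the 4 pools was left out, and *Foxf2* and *Myh7* were among the 3 that passed with the correction for GC content and transcript length. In the autonomic list, *Phox2a*, a determinant of autonomic neurons, rose from 4.23 and 1.99 TPM in WT to 22.3 and 23.2 TPM in *Shh-/-* (log2 fold change 2.59, SE 0.30, limma adjusted p = 0.0493), the 1 call among 8 genes tested, while *Th*, which encodes the enzyme that makes the catecholamine precursor, was at 1.11 and 5.10 against 5.17 and 9.32 TPM (-1.15, limma adjusted p = 0.275). In the sensory list, the neurotrophin receptor gene *Ntrk2* rose from 2.1 and 2.35 to 9.73 and 12.1 TPM (1.88, SE 0.19, limma adjusted p = 0.0448), 1 of 2 calls among 5 genes tested. *Isl1*, which sensory neurons and other tissues express, was at 68.3 and 57.3 against 93.1 and 116 TPM (-0.72, limma adjusted p = 0.104). The sensory genes *Pou4f1*, *Prdm12* and *Prrxl1* were under the filter, and *Prdm12* was listed at 0 in both WT pools and at 1.38 and 1.66 TPM in *Shh-/-*.

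Among motor neuron genes *Isl2* rose from 5.90 and 3.98 to 27.7 and 22.0 TPM (2.13, SE 0.23, limma adjusted p = 0.0463), 1 call among 3 tested. *Mnx1*, a motor neuron determinant, was at 0.45 and 0.91 TPM in *Shh-/-* and 1.87 and 2.17 TPM in WT (-0.86, limma adjusted p = 0.145). *Lhx3*, another such determinant, was listed at 0 in all 4 pools, and *Chat* and *Slc5a7*, needed to make acetylcholine, were under the filter. *Slc18a3*, also on the list, averaged 4.84 TPM in *Shh-/-* and 0.87 TPM in WT (log2 fold change 1.65, limma adjusted p = 0.0595). The median log2 fold changes of the motor neuron list (1.65, 3 tested) and of the sensory list (1.73, 5 tested) were above that of the 10 genes. The proneural list had the highest median, 2.67. In it *Nhlh1* (7.59 and 7.03 against 0.64 and 0.04 TPM, 2.67) and *Nhlh2* (26.5 and 28.7 against 2.89 and 0.88 TPM, 3.40), bHLH genes of newborn neurons, rose with a limma adjusted p of 0.0463 each, and 8 of its 9 genes were positive. *Nhlh1* was under 1 TPM in both WT pools and passed the filter only through the *Shh-/-* pools. *Neurog2*, a proneural factor of sensory and spinal precursors, was at 31.4 and 28.7 against 3.45 and 0.05 TPM (3.85, limma adjusted p = 0.0828), so its WT pools were far apart.

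In the neural tube list *Pax3*, a dorsal neural tube and neural crest gene, rose from 0.27 and 0.04 to 3.77 and 3.84 TPM (2.06, SE 0.23, limma adjusted p = 0.0470), 1 call among 5 tested. *Pax3* too was under 1 TPM in both WT pools and passed the filter only through the *Shh-/-* pools. The list's median was 0.88, with 4 genes positive and 1 negative. *Nkx6-1*, a ventral neural tube gene that foregut derivatives also use, was at 0.07 and 1.85 against 15.8 and 5.82 TPM (-2.62, limma adjusted p = 0.118). *Sox1* and *Olig2*, which mark neural tube progenitors, were at 0.06 TPM or less in every pool. *Sox10* of neural crest and Schwann cell precursors was at 34.0 and 28.6 against 18.2 and 11.7 TPM (1.05, limma adjusted p = 0.109), in a list with 0 of 7 genes called and a median of 0.60.

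Summed over each whole list, markers of neurons and their precursors moved with the 10 genes to different extents. The proneural list summed to 177 to 201 TPM in *Shh-/-* and 55.1 to 69.9 TPM in WT, the motor neuron list to 28.2 to 34.8 against 7.35 to 9.34 TPM and the autonomic list to 172 to 198 against 97.5 to 117 TPM. The neural crest and Schwann list summed to 111 to 132 against 61.5 to 77.1 TPM and the neural tube list to 111 to 113 against 67.3 to 86.2 TPM. The sensory list summed to 133 to 145 against 109 to 130 TPM, a narrow gap in a sum that *Isl1* dominates in WT.

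Lists of other tissues differed between the groups as well. Muscle genes summed to 127 to 147 TPM in *Shh-/-* and 42.5 to 52.7 TPM in WT, with 2 of 7 called, the cardiac myosins *Myh6* (8.10 and 7.59 against 1.54 and 1.69 TPM, limma adjusted p = 0.0448) and *Myh7* (16.8 and 12.6 against 2.79 and 2.32 TPM, limma adjusted p = 0.0422). Endothelial genes summed to 235 to 264 against 151 to 154 TPM, with *Tie1* called of 5 (38.9 and 43.2 against 18.5 and 16.9 TPM, limma adjusted p = 0.0470). Foregut mesenchyme genes summed to 177 to 194 against 279 to 293 TPM, and *Foxf2*, a Hedgehog-dependent mesenchymal factor, fell from 20.3 and 20.0 to 0.24 and 1.24 TPM (log2 fold change -3.67, SE 0.32, limma adjusted p = 0.0383), the 1 call of 7. The mean of *Foxf2* in *Shh-/-* was 0.74 TPM, so this gene passed the filter only through the WT pools. Epithelial genes (545 to 619 against 555 to 569 TPM, 0 of 7 called), erythroid genes (10566 to 16158 against 14479 to 16770 TPM, 0 of 5 called) and macrophage genes (9.66 to 14.5 against 9.21 to 10.3 TPM, 0 of 3 called) overlapped in their sums between the groups. Within the epithelial list, the foregut factors *Foxa2* (5.34 and 9.12 against 29.2 and 39.8 TPM, log2 fold change -2.13, limma adjusted p = 0.0602) and *Nkx2-1* (6.16 and 3.61 against 15.9 and 17.9 TPM, -1.64, limma adjusted p = 0.0715) were below WT in both *Shh-/-* pools. The part that the cell makeup of the dissected tissue played in the levels of the 10 genes was not tested.

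**Figure D4:**
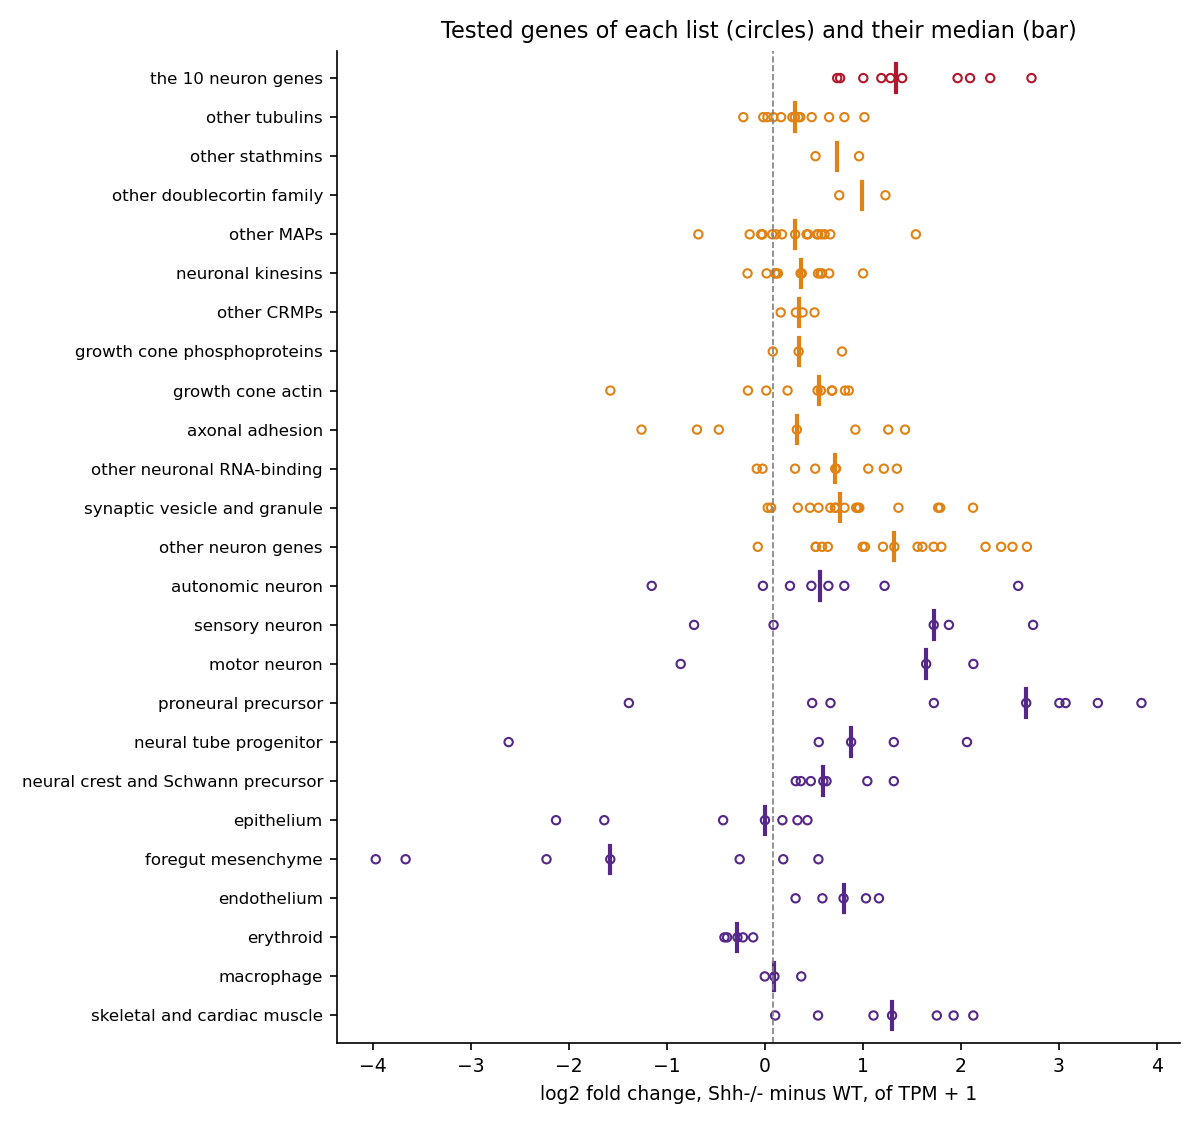
Log2 fold change of TPM + 1 (horizontal axis, *Shh-/-* minus WT) of every tested gene in each list (open circles, with the list's median as a bar), for the 10 genes (red), the other genes of the pathway (orange) and markers of cell types (purple), and with the median of all tested genes, 0.08, as a dashed line. The 10 genes lie between 0.74 and 2.72, the proneural list has the highest median (2.67) and the foregut mesenchyme list the lowest (-1.58).

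Genes with a profile most like that of the 10 were sought among all other tested genes, by the root mean square difference between centred log2(TPM + 1) values and the mean centred profile of the 10 over the 4 libraries. That profile was 0.74 and 0.81 in *Shh-/-* and -0.63 and -0.92 in WT. The nearest were *Mfng* (a glycosyltransferase that modifies Notch, difference 0.05, with 28.8 and 32.3 against 10.8 and 8.07 TPM), *Ebf1* (a transcription factor, 0.06, with 19.9 and 19.3 against 6.31 and 5.35 TPM) and *Dbndd1* (0.07, with 15.0 and 13.7 against 4.71 and 3.76 TPM). *Pcdh17*, *March11*, *Notum*, *Fgf3*, *Aplnr*, *Adcy4* and *Dtx1* followed at 0.08 each. With 4 libraries in 2 groups, the measure mostly finds genes with a like difference between the genotypes and a like order of the WT pools, and none of the 10 nearest genes is on the lists above.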

How the data were processed

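The authors extracted RNA from pools of 3 larynxes, enriched poly(A) RNA, made directional libraries that were read from a single end and, per the submitters' processing notes, aligned reads to mm10 with HISAT2 2.1.0 and quantified genes with StringTie 1.3.6. The annotation release is not given in the sources used here. The deposited tables hold TPM, which the authors scaled per library to a fixed total, FPKM, and mean read coverage. The deposited coverage and FPKM values were used only for depth (their most frequent ratio gives the aligned bases) and, for FPKM, in one alternative. No counts were given, so no counting interval was computed and precision rests on the spread of 2 pools per group.

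TPM was summed per gene ID. The 16972 genes whose TPM averaged 1 or more over the libraries were fitted as log2(TPM + 1) with limma 3.58.1 in R 4.3.3 (eBayes with trend, no covariates), with Benjamini-Hochberg adjustment over all of them and a threshold of 0.05. The script was tested on simulated data. The smallest p of an exact permutation test of 2 against 2 is 0.33, so none was run. Named genes were the 10 members, listed genes past the threshold, then defining relatives of a member, the 10 genes most like the members, and *Shh*, *Ptch1* and *Gli1*. *Gli1* was at 3.20 and 8.45 TPM in *Shh-/-* and 41.7 and 32.9 TPM in WT (limma adjusted p = 0.0715). *Drg11* had no entry, and some listed genes are not reported here. Listed genes named for a change against the rest of their list, or for being at or near 0, were picked after their values were seen, and so were *Gm20388*, *Evc*, *Nefm*, *Celf3* and *Slc18a3*. The members and lists were chosen with earlier results of these data known. Alternatives were a pseudocount of 0.1, no filter or a mean TPM of 5, quantile normalization, median centring, FPKM, a correction for GC content and transcript length (splines with 5 degrees of freedom, 16887 genes), eBayes without trend, and each pool left out. Protein sequences were not used here.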

Additional observations from a re-analysis of the deposited data

How the results depend on the processing

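The 10 genes stayed higher in *Shh-/-* under the alternatives run, those leaving out each pool included, except that *Mapt* did not enter the fit with a mean TPM of at least 5. Their median log2 fold change (1.34) was 1.71 with a pseudocount of 0.1 and 1.17 to 1.51 on leaving out each pool, and the log2 ratio of their summed TPM (1.73) was 1.57 to 1.91, highest without WT pool 4. The calls over all genes were less stable. Against 123 genes called, the fit with a pseudocount of 0.1 called 69, that with correction for GC content and transcript length 73, and that with no filter 0 of 28524 (5011 at an unadjusted p under 0.05). Leaving out a pool gave 0 to 16: 16 without WT pool 6 and 0 without *Shh-/-* pool 1, *Shh-/-* pool 2 or WT pool 4, with 2070 to 3761 at an unadjusted p under 0.05. In these fits the lone pool is assumed to vary like the other group. Against 6 other pathway genes called, the fits called 1 with a pseudocount of 0.1, 3 with median centring, 3 with eBayes without trend, 2 after correction for GC content and length, and 0 with no filter (64 at an unadjusted p under 0.05) or without any 1 pool. The sign turned for *Tubb5* (0.083 with quantile normalization, and -0.086 to 0.057 on leaving out each pool, positive without *Shh-/-* pool 2 or WT pool 4), *Map2* (-0.21 to 0.83) and *Nsg1* (-0.27 to 0.13) without WT pool 4, *Kif5b* (0.017) with the GC and length correction and *Marcks* (-0.046) with median centring. The cause of these shifts was not tested. No paired analysis was possible because the groups share no replicate number (1 and 2 against 4 and 6).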
